A study of Mus musculus with 8 samples.

Results

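Lysosomal hydrolases and storage disease genes form a set of 36 genes whose products break down glycans, sphingolipids, other lipids and peptides in the lysosome, or sit in its membrane. The members were chosen by name, from textbook knowledge of lysosomal storage disease, but with earlier results of these data known. Their counts are therefore set beside those of all genes as a description, with no test of the set. Each member was taken through the probe sets annotated to that gene alone. The probe set of the highest mean over all arrays was its main one. All 36 members were measured, among 18194 genes in all. Their mRNA was compared between 4 Nestin-Pex5-/- and 4 wild type mice of 10 weeks, with total RNA of the hypothalamus hybridised to 1 Affymetrix whole-genome mouse array per mouse. In Nestin-Pex5-/- mice, nestin-driven Cre removed the floxed Pex5 gene, which encodes the receptor that imports matrix proteins into peroxisomes, and these mice were bred into a Swiss Webster background. Nestin-Cre acts in neural progenitors, so neurons, astrocytes and oligodendrocytes descend from recombined cells, whereas microglia come from another lineage. The labels name the other mice only as wild type, and they give neither sex nor litter. The values are log2 units of a normalized probe intensity, and levels of different genes cannot be set against each other on this scale.

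The lysosome is an acid organelle in which many hydrolases, most of them carried there by mannose 6-phosphate receptors, degrade material delivered by endocytosis, phagocytosis and autophagy. Loss of 1 enzyme, cofactor or membrane protein lets its substrate build up, and many such diseases damage the brain. All cells hold lysosomes, and phagocytes such as microglia hold many. A good part of the lysosomal genes can be switched on together by the transcription factor TFEB, which binds an E-box called the CLEAR element.

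Members of every substrate class rose in the hypothalamus of Nestin-Pex5-/- mice. Of the 36 members, 15 were higher in Nestin-Pex5-/- than in wild type hypothalamus and 0 were lower (limma over all 18194 genes, Benjamini-Hochberg adjusted p under 0.05, n = 4 each). Over all genes, 3.98% were called higher and 0.791% lower. With each array scaled to Actb, which itself differed by 0.13 on the log2 scale, 10 members were higher and 1, Ids, was lower. Under that scaling, 540 of all 18194 genes were called higher and 1086 lower. The median log2 difference was 0.19 over the members and -0.03 over all genes. It was positive in 33 of the 36 members, and in 6968 of all 18194 genes. Before adjustment, 19 members were higher and 1 was lower at a limma p under 0.05, where 1611 and 1457 of all 18194 genes were. Complete separation of the genotypes, with every array of one beyond every array of the other, was seen for 17 members that were higher and for 1 that was lower, where 6.63% and 4.51% of all genes did so in those directions. In the same arrays, 13 of 14 markers of microglia and macrophages were higher, with a median log2 difference of 2.0, and their part in the lysosomal changes was not tested. In a bulk tissue sample, more cells of a type and more RNA per cell cannot be told apart.

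The shifts were mostly moderate. Man2b1 and Grn changed at least 2-fold, 8 of the 15 called members changed at least 1.5-fold, and the smallest called change was the 1.19-fold of Asah1. For 20 of the 21 members that were not called, the upper end of the 95% interval lay under 1.5-fold, and the highest such bound was 1.59-fold, for Manba. All 15 called members had every Nestin-Pex5-/- array above every wild type array. That gives 0.0286, the smallest two-sided p an exact permutation test of 4 against 4 can reach (70 assignments). The calls were made on the same values, so this separation adds no support to them. In all, 18 of the 36 members reached that p, and 3 of them were not called. Over all genes, 6.63% separated completely with Nestin-Pex5-/- higher and 4.51% with Nestin-Pex5-/- lower.

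**Figure D1:**
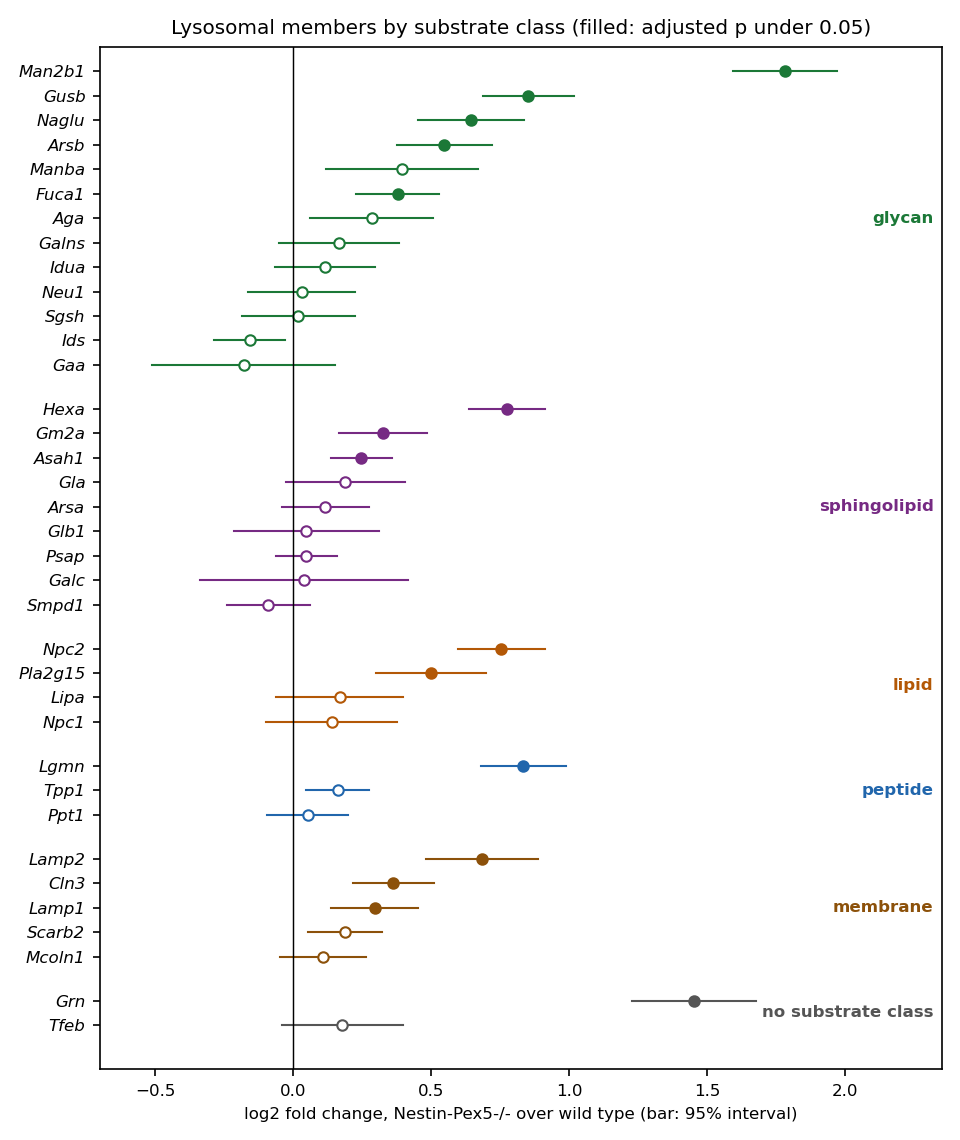
Log2 fold change of each of the 36 members (Nestin-Pex5-/- over wild type, x axis, bars for the 95% interval), grouped by the substrate or place of the protein. Filled points passed an adjusted p of 0.05, and the called members of every class lie to the right of 0, with Man2b1 at 1.78 and Grn at 1.45 the farthest out.

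The promoters are shown here because TFEB is the regulator named for this gene group, and its part in the changes was not tested. RefSeq windows on GRCm38.p6 that run from 250 bases before to 50 bases after the start were found for 32 of the 36 members, and Aga, Asah1, Galns and Npc1 were not matched. The sequence TCACGTG, which holds the E-box CACGTG and is the core of the CLEAR element, was searched on both strands. It occurred in the windows of 10 of the 32 members (31.25%), and in 4.292% of the windows of 27025 genes. CACGTG alone occurred in the same 10 members and in 8.093% of all windows. The longer TCACGTGA occurred in Cln3, Gla and Mcoln1 (9.375%), against 1.125% of all windows. In the windows below, 5′ to 3′ along the gene, capitals mark TCACGTG, its reverse complement CACGTGA, or TCACGTGA where these overlap.
Naglu promoter (chr11:101070000-101070069, strand plus): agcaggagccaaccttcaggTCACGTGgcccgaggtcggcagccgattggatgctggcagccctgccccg
Lgmn promoter (chr12:102439093-102439162, strand minus): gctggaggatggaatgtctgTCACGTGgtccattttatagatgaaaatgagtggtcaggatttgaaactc
Lamp1 promoter (chr8:13159079-13159148, strand plus): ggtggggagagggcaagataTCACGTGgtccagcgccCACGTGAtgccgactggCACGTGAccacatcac
Cln3 promoter (chr7:126583336-126583405, strand minus): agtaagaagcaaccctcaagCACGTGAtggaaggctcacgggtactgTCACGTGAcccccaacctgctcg
Mcoln1 promoter (chr8:3500427-3500496, strand plus): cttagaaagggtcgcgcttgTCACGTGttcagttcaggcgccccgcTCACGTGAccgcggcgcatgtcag
Gla promoter (chrX:134601184-134601253, strand minus): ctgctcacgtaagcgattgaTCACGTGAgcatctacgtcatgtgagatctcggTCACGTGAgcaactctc
The first 4 belong to members that rose, and the last 2 to members that were not called. Lamp1 held the E-box 4 times, with first bases at -61, -45, -28 and -15 from the start, of which the first 3 are shown. The Naglu motif began at -74 and the Lgmn motif at -50. For Lgmn and Cln3, the annotated span of the gene reaches past the window, to 102439728 and 126585817. The start used for these genes thus lies inside that span. Among called members with a window, 4 of 14 held TCACGTG (Naglu, Lgmn, Lamp1 and Cln3), and among those not called 6 of 18 did (Mcoln1, Gla, Arsa, Gaa, Glb1 and Sgsh). GAGGAAGT, a sequence bound by ETS factors such as PU.1 of myeloid cells, was in 2 of the 32 windows (Gusb and Gla), or 6.25%, against 3.689% of all windows. These matches describe letters in a window, and binding was not measured.

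Tfeb itself was not called. Its values were 7.73, 7.91, 8.04 and 7.91 in Nestin-Pex5-/- and 7.69, 7.52, 7.73 and 7.94 in wild type mice, and the ranges overlapped. The difference was 0.18 (SE 0.0976, limma adjusted p = 0.404), with a 95% interval of 0.97 to 1.32-fold. The array reads its mRNA, and the place of the protein in the cell, by which TFEB is mainly regulated, was not measured.

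Among the 13 members that act on glycans, 5 rose and 8 were not called, with a median log2 difference of 0.28. Man2b1, the lysosomal α-mannosidase that breaks down N-glycans and is lost in α-mannosidosis, had the largest difference of the 36 members by main probe set. It measured 10.68, 10.85, 10.75 and 10.77 in Nestin-Pex5-/- mice, against 9.13, 8.96, 8.76 and 9.07 in wild type mice, a gap with no overlap and far wider than the spread within either genotype. The change was 3.44-fold (95% interval 3.01 to 3.92, limma adjusted p = 1.68e-06). Its size depended on the probe set, and the log2 difference was 1.78 by the main probe set and 1.02 by the mean of its 2 probe sets. By that mean, Grn (1.48) and Gusb (1.18) lay above Man2b1.

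Enzymes of glycosaminoglycan breakdown came next in this class. Gusb, the β-glucuronidase deficient in Sly disease, had values of 8.39, 8.44, 8.54 and 8.44 in Nestin-Pex5-/- and 7.67, 7.64, 7.41 and 7.68 in wild type mice. All Nestin-Pex5-/- values lay above all wild type values, and wild type replicate 3 lay below its group. The change was 1.80-fold (1.61 to 2.02, adjusted p = 8.85e-05). Naglu, which removes N-acetylglucosamine from heparan sulfate and is lost in a form of Sanfilippo disease, read 7.33, 7.26, 7.27 and 7.33 in Nestin-Pex5-/- arrays and 6.82, 6.64, 6.41 and 6.74 in wild type arrays. Its Nestin-Pex5-/- arrays were close together and above the more scattered wild type arrays, by 1.56-fold (adjusted p = 0.00167). Arsb, the sulfatase of dermatan sulfate lost in Maroteaux-Lamy disease, was at 10.73, 10.97, 10.96 and 11.03 in Nestin-Pex5-/- and 10.37, 10.42, 10.27 and 10.44 in wild type hypothalamus. It rose 1.46-fold (adjusted p = 0.00233), with Nestin-Pex5-/- replicate 7 the lowest of its group yet above every wild type array.

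The other enzymes of glycosaminoglycan breakdown in this class did not pass the test. Sgsh, the sulfamidase of heparan sulfate, differed by 0.02 (adjusted p = 0.943). Idua, which removes iduronic acid and is lost in Hurler disease, differed by 0.12 (adjusted p = 0.517). Galns, the sulfatase of keratan sulfate lost in Morquio disease, differed by 0.17 (adjusted p = 0.432). Upper 95% bounds were 1.17-fold for Sgsh, 1.23-fold for Idua and 1.31-fold for Galns. Ids, the iduronate sulfatase of Hunter disease, was the 1 member whose arrays lay wholly lower in Nestin-Pex5-/- mice. It read 13.10, 13.01, 13.08 and 13.09 in Nestin-Pex5-/- and 13.23, 13.31, 13.23 and 13.13 in wild type mice, a difference of -0.16 with an unadjusted p of 0.0216 and an adjusted p of 0.195. Its 95% interval ran from 0.82-fold to 0.98-fold and did not meet those of Gusb, Naglu and Arsb, although the difference between the genes was not tested. Scaled to Actb, Ids passed (-0.29, limma adjusted p = 0.0417), as 1 of 1086 genes called lower among all 18194 under that scaling.

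Of the enzymes that take sugars off glycoproteins, Fuca1, the α-fucosidase of fucosidosis, rose 1.30-fold (9.95, 9.94, 9.81 and 9.80 in Nestin-Pex5-/- against 9.49, 9.44, 9.43 and 9.63 in wild type arrays, adjusted p = 0.00992). The nearest Nestin-Pex5-/- and wild type arrays of Fuca1 were 0.173 apart on the log2 scale, and the call was lost with the mean of its probe sets (adjusted p = 0.113). Manba, the β-mannosidase, measured 7.96, 7.997, 7.68 and 7.73 in Nestin-Pex5-/- and 7.49, 7.40, 7.16 and 7.73 in wild type mice, and Aga, which cleaves the link of sugar to asparagine, measured 8.48, 8.60, 8.50 and 8.53 in Nestin-Pex5-/- and 8.30, 8.09, 8.07 and 8.52 in wild type mice. In both, wild type replicate 4 reached into the Nestin-Pex5-/- range, and neither passed (0.39, adjusted p = 0.127 for Manba, and 0.28, adjusted p = 0.175 for Aga). Without that array both passed, at limma adjusted p = 0.0259 for Manba and 0.0127 for Aga. Leaving it out also raised the calls over all 18194 genes, from 868 to 1411. Neu1, the lysosomal sialidase, differed by 0.03 (adjusted p = 0.892). Gaa, the glycogen-cleaving glucosidase of Pompe disease, spread widely within Nestin-Pex5-/- mice, at 11.60, 11.43, 10.94 and 10.94, and read 11.47, 11.48, 11.29 and 11.39 in wild type mice. Replicate 7 of Nestin-Pex5-/- lay above all wild type arrays, replicate 8 among them and replicates 9 and 10 below all of them, and the difference of -0.18 did not pass (adjusted p = 0.585).

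Of the 9 members that act on sphingolipids, 3 rose and 6 were not called, with a median log2 difference of 0.12. Hexa encodes the α subunit of β-hexosaminidase A, which cleaves ganglioside GM2 and is lost in Tay-Sachs disease. Its values were 11.04, 11.20, 11.10 and 11.16 in Nestin-Pex5-/- and 10.27, 10.31, 10.39 and 10.44 in wild type mice, with the genotypes well apart. It rose 1.71-fold (1.55 to 1.88, adjusted p = 4.77e-05). Gm2a, the activator protein that lifts GM2 out of the membrane for that enzyme, was at 10.51, 10.50, 10.60 and 10.61 in Nestin-Pex5-/- and 10.21, 10.18, 10.13 and 10.41 in wild type arrays, and rose 1.25-fold (adjusted p = 0.0305). Asah1, the acid ceramidase lost in Farber disease, was at 10.37, 10.39, 10.36 and 10.35 in Nestin-Pex5-/- and 10.17, 10.09, 10.09 and 10.14 in wild type arrays. Its arrays were tight in both genotypes, and it rose 1.19-fold (adjusted p = 0.0191). The calls of Gm2a and Asah1 were lost when single arrays were left out: Gm2a at adjusted p = 0.0518 to 0.104 unless the array left out was wild type replicate 4, and Asah1 at 0.0571 to 0.0685 without Nestin-Pex5-/- replicate 8, 9 or 10 or wild type replicate 2 or 3. With the mean of its 3 probe sets, Gm2a did not pass (0.24, limma adjusted p = 0.290).

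The enzymes for myelin sphingolipids were not called. Arsa, the sulfatidase lost in metachromatic leukodystrophy, differed by 0.12 (95% interval -0.04 to 0.27), and Galc, the galactocerebrosidase lost in Krabbe disease, by 0.04 (-0.34 to 0.42). Galc read 8.47, 8.41, 7.77 and 7.80 in Nestin-Pex5-/- and 8.11, 8.25, 7.93 and 8.01 in wild type mice, so replicates 7 and 8 of Nestin-Pex5-/- lay above all wild type arrays and replicates 9 and 10 below them. Gla, the α-galactosidase of Fabry disease, differed by 0.19, Glb1, the β-galactosidase of GM1 gangliosidosis, by 0.05, and Smpd1, the acid sphingomyelinase, by -0.09. Psap, the precursor of the saposins that assist several of these enzymes, was measured tightly at 13.31 ± 0.0355 in Nestin-Pex5-/- and 13.26 ± 0.0137 in wild type mice (SD, n = 4 each), a difference of 0.05 with an upper 95% bound of 1.12-fold. The adjusted p of these 6 genes lay between 0.36 and 0.932.

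For other lipids, 2 of 4 members rose, and the median log2 difference was 0.33. Npc2, the soluble protein that hands cholesterol to the membrane protein Npc1, had 11.95, 11.87, 11.93 and 11.94 in Nestin-Pex5-/- and 11.14, 11.06, 11.12 and 11.36 in wild type hypothalamus. The Nestin-Pex5-/- arrays lay within a narrow band above all wild type arrays, and the change was 1.69-fold (1.51 to 1.88, adjusted p = 0.000168). Npc1, which exports that cholesterol, read 8.18, 8.36, 8.15 and 8.02 in Nestin-Pex5-/- and 8.05, 8.03, 7.81 and 8.28 in wild type mice. These ranges overlapped, and the change was 1.10-fold (0.93 to 1.30, adjusted p = 0.557). The 95% intervals of Npc2 and Npc1 did not overlap, but the difference between the genes was not tested. Pla2g15, the lysosomal phospholipase A2, was at 8.70, 8.84, 8.57 and 8.58 in Nestin-Pex5-/- and 8.17, 8.10, 8.06 and 8.38 in wild type arrays, and rose 1.41-fold (adjusted p = 0.0101). Lipa, the acid lipase lost in Wolman disease, had 9.96, 9.85, 9.56 and 9.65 in Nestin-Pex5-/- and 9.46, 9.62, 9.50 and 9.77 in wild type arrays and was not called (0.17, adjusted p = 0.455).

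Of the 3 peptide-related members, 1 rose. Lgmn, the asparaginyl endopeptidase legumain that also processes cathepsins, had 11.18, 11.29, 11.21 and 11.23 in Nestin-Pex5-/- and 10.41, 10.30, 10.31 and 10.56 in wild type mice. The genotypes were well apart, by 1.78-fold (1.60 to 1.98, adjusted p = 6.31e-05). Tpp1 and Ppt1, a peptidase and a thioesterase whose loss gives neuronal ceroid lipofuscinosis, did not pass. Tpp1 read 11.14, 11.15, 11.15 and 11.08 in Nestin-Pex5-/- and 10.96, 11.03, 10.94 and 10.95 in wild type arrays. The groups of Tpp1 did not overlap, yet the difference was 0.16 (adjusted p = 0.133), or 1.12-fold with an upper 95% bound of 1.21. Ppt1 differed by 0.05 (adjusted p = 0.734).

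At the lysosomal membrane, 3 of 5 members rose, with a median log2 difference of 0.29. Lamp2, a major membrane glycoprotein needed for autophagy and lost in Danon disease, measured 10.69, 10.88, 10.91 and 10.94 in Nestin-Pex5-/- and 10.16, 9.98, 10.19 and 10.36 in wild type mice. It rose 1.61-fold (1.40 to 1.85, adjusted p = 0.00159). Its close relative Lamp1 measured 12.14, 12.20, 12.14 and 12.21 in Nestin-Pex5-/- and 11.85, 11.75, 11.86 and 12.05 in wild type mice, and rose 1.23-fold (adjusted p = 0.0433). That call was the nearest to the threshold, and it was lost whichever array was left out (adjusted p = 0.0716 to 0.133), wild type replicate 4 excepted. Cln3, the membrane protein of Batten disease, measured 7.75, 7.65, 7.68 and 7.66 in Nestin-Pex5-/- and 7.21, 7.44, 7.26 and 7.39 in wild type arrays, which did not overlap, and rose 1.29-fold (adjusted p = 0.0101). With the mean of its 2 probe sets Cln3 did not pass (adjusted p = 0.123).

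Scarb2, the receptor that carries glucocerebrosidase to the lysosome, was at 12.07, 11.98, 11.99 and 12.08 in Nestin-Pex5-/- and 11.86, 11.92, 11.73 and 11.86 in wild type arrays. As with Tpp1, the groups did not overlap, but the difference of 0.19 did not pass (adjusted p = 0.136). Mcoln1, the cation channel mucolipin 1, differed by 0.11 (adjusted p = 0.484), and its upper 95% bound was 1.20-fold. Of the 3 membrane members whose promoter windows are shown above, Lamp1 and Cln3 thus rose, while Mcoln1, with motifs beginning at -72 and -46, did not pass.

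Grn, which encodes progranulin, a secreted protein that is taken to the lysosome and whose loss in man gives frontotemporal dementia or ceroid lipofuscinosis, belongs to no substrate class. It was at 11.45, 11.77, 11.78 and 11.85 in Nestin-Pex5-/- and 10.23, 10.16, 10.20 and 10.46 in wild type mice, with replicate 7 the lowest of the Nestin-Pex5-/- arrays and still above every wild type array. The change was 2.74-fold (2.34 to 3.20, adjusted p = 1.91e-05). By main probe set this was next in size after Man2b1, and by the mean of the probe sets of a gene it was ahead of it.

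**Figure D2:**
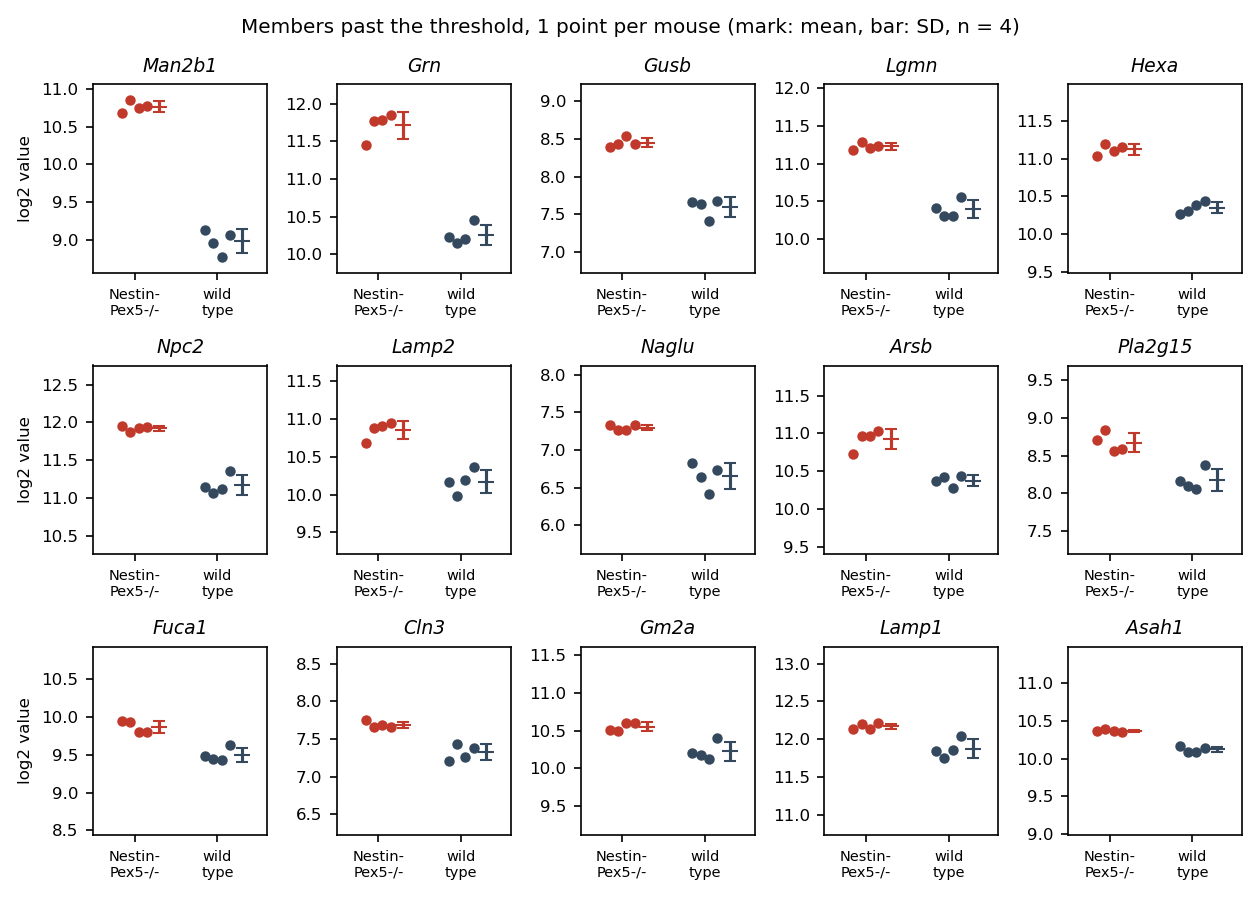
Deposited log2 values of the 15 members that passed the threshold, 1 point per mouse, Nestin-Pex5-/- left and wild type right in each panel, with the mean and SD (n = 4). Every panel spans the same number of log2 units, no panel shows overlap between the genotypes, and the gaps are widest for Man2b1 and Grn and narrowest for Lamp1 and Gm2a.

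Other probe sets of the same genes gave a second reading of the mRNA on the same arrays. The 36 members had 82 probe sets, and 25 members had more than 1. The 15 called members had 19 other probe sets in 10 genes, of which 10 passed when all 45101 probe sets were tested together, all 10 higher in Nestin-Pex5-/- mice. Those 10 belonged to Lamp2, Grn, Npc2, Arsb, Gusb and Pla2g15. No other probe set of Fuca1, Gm2a, Cln3 or Man2b1 passed, including bright ones of Fuca1 (limma adjusted p = 0.0907 and 0.296) and Gm2a (0.193). The share of all 45101 probe sets that passed is not given here. Over that larger number of tests, 13 of the 15 main probe sets passed, and the exceptions were Gm2a and Lamp1 (adjusted p = 0.0566 and 0.0772). The 4 probe sets of Lamp2 gave log2 differences of 0.65 to 0.70, the 3 of Grn gave 1.44 to 1.56, and the 2 of Pla2g15 gave 0.4988 and 0.4847. The size was less certain for Gusb and Man2b1. The other Gusb probe set gave 1.504 (adjusted p = 1.88e-05) where the main one gave 0.85. The other Man2b1 probe set gave 0.26 (adjusted p = 0.182) where the main one gave 1.78. A second Scarb2 probe set passed at a difference of 0.44 (adjusted p = 0.040), so the call of Scarb2 depended on the probe set. For Ids, the 4 brightest of 6 probe sets were all below 0, from -0.11 to -0.24, and none passed.

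**Figure D3:**
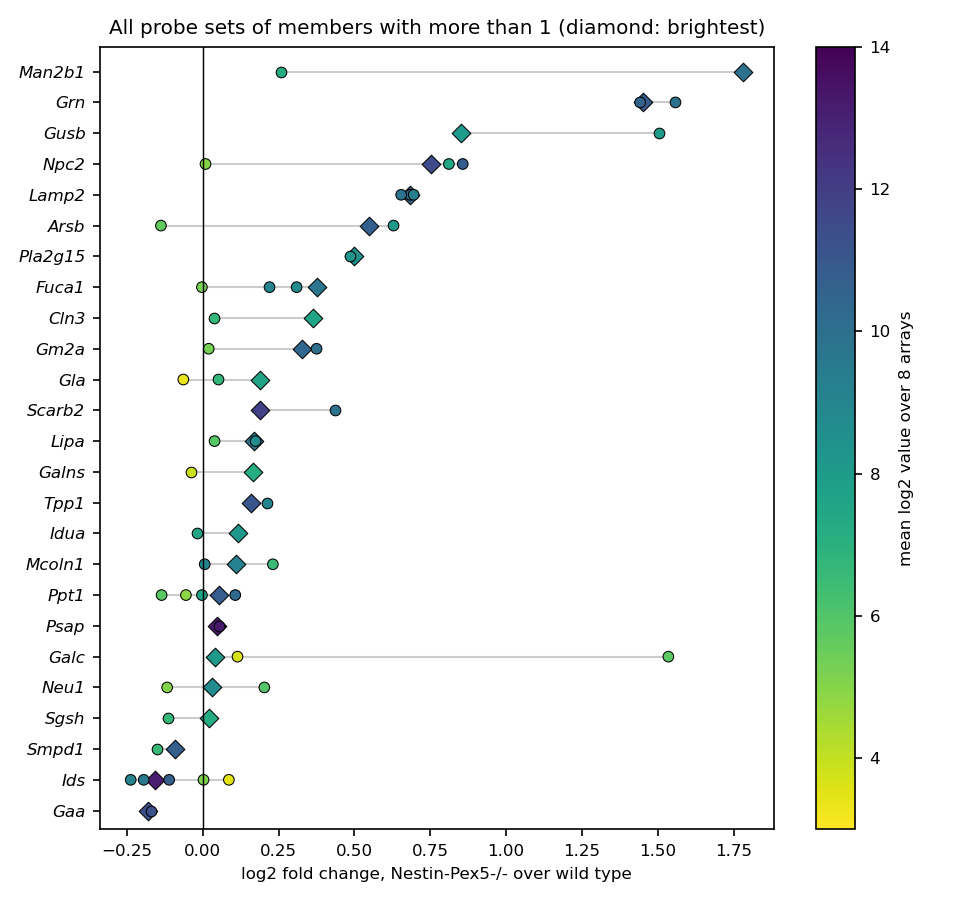
Log2 fold change (Nestin-Pex5-/- over wild type, x axis) of every probe set of the 25 members with more than 1, coloured by mean log2 value over the 8 arrays, with the brightest probe set as a diamond. Probe sets of Grn, Lamp2 and Pla2g15 lie close together, those of Man2b1, Gusb and Galc lie far apart, and most points of called genes near 0 are dim.

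The arrays of a genotype were not interchangeable across the set. The mean over all 36 members was 9.76 to 9.85 in Nestin-Pex5-/- arrays and 9.36 to 9.58 in wild type arrays, without overlap. Wild type replicate 4 was the highest wild type array for 24 of 36 members (66.7%), against 52.2% of all genes, and wild type replicate 3 was the lowest for 22 (61.1%), against 28.4% of all genes. Within Nestin-Pex5-/- mice, replicates 7 and 8 were both above 9 and 10 for 15 members (41.7%), against 30.9% of all genes. Both were below 9 and 10 for 4 members (11.1%), against 24.3% of all genes. Markers of the meninges, the membranes that cover the brain, averaged 8.06, 8.32, 9.26 and 9.24 in Nestin-Pex5-/- arrays 7, 8, 9 and 10, and 8.88 to 9.38 in wild type arrays, with 0 of 9 called. Wild type replicate 4, the array without which Manba and Aga passed, stood apart in the choroid plexus, the tissue that makes cerebrospinal fluid. The 7 markers of choroid plexus and ependyma averaged 8.56 to 8.91 in Nestin-Pex5-/- arrays and 9.43, 9.33, 9.08 and 7.94 in wild type arrays 1 to 4. Ttr, which encodes the carrier protein transthyretin, read 14.30, 14.02, 14.47 and 14.28 in Nestin-Pex5-/- mice and 14.59, 14.47, 14.48 and 10.51 in wild type mice. The same wild type array was the highest of its group for myelin markers, at 11.96. The part of these differences between arrays in the results for the members was not tested.

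By list median, microglial markers separated the genotypes further than the lysosomal members did (2.0 against 0.19 on the log2 scale). Gene by gene the differences overlapped, from 0.45 to 3.23 for the markers and from -0.18 to 1.78 for the members. Of the 14 markers of microglia and macrophages, P2ry12 was the exception that did not pass and differed by 1.37-fold (adjusted p = 0.0554). Complement genes changed most, with 9.402-fold for C1qb and 9.34-fold for C1qc. The mean of the log2 values of the list was 9.93 to 10.30 in Nestin-Pex5-/- and 7.95 to 8.17 in wild type arrays. All 15 called lysosomal members had log2 differences below the marker median.

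Other cell types had fewer calls. Of 8 astrocyte markers, 2 rose (Gfap 6.76-fold and Aqp4 2.15-fold), and the list averaged 11.74 to 11.89 in Nestin-Pex5-/- and 11.14 to 11.43 in wild type arrays. Myelin markers had a median difference of 0.45 with 0 of 9 called, at 11.72 to 12.19 in Nestin-Pex5-/- and 11.19 to 11.96 in wild type arrays. Neuronal markers had a median of -0.04 with 0 of 10 called, and hypothalamic neuropeptide and identity genes a median of -0.19 with 0 of 9 called. Of 5 oligodendrocyte precursor markers, 1 rose (Gpr17, 1.92-fold). Markers of neutrophils and monocytes (7), T and B cells (6), endothelium (6) and choroid plexus and ependyma (7) had 0 calls. Pex5 read 8.67 ± 0.071 in Nestin-Pex5-/- and 8.66 ± 0.038 in wild type mice (SD, n = 4 each), and whether its probe set lies within the deleted part is not given in the sources used here.

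**Figure D4:**
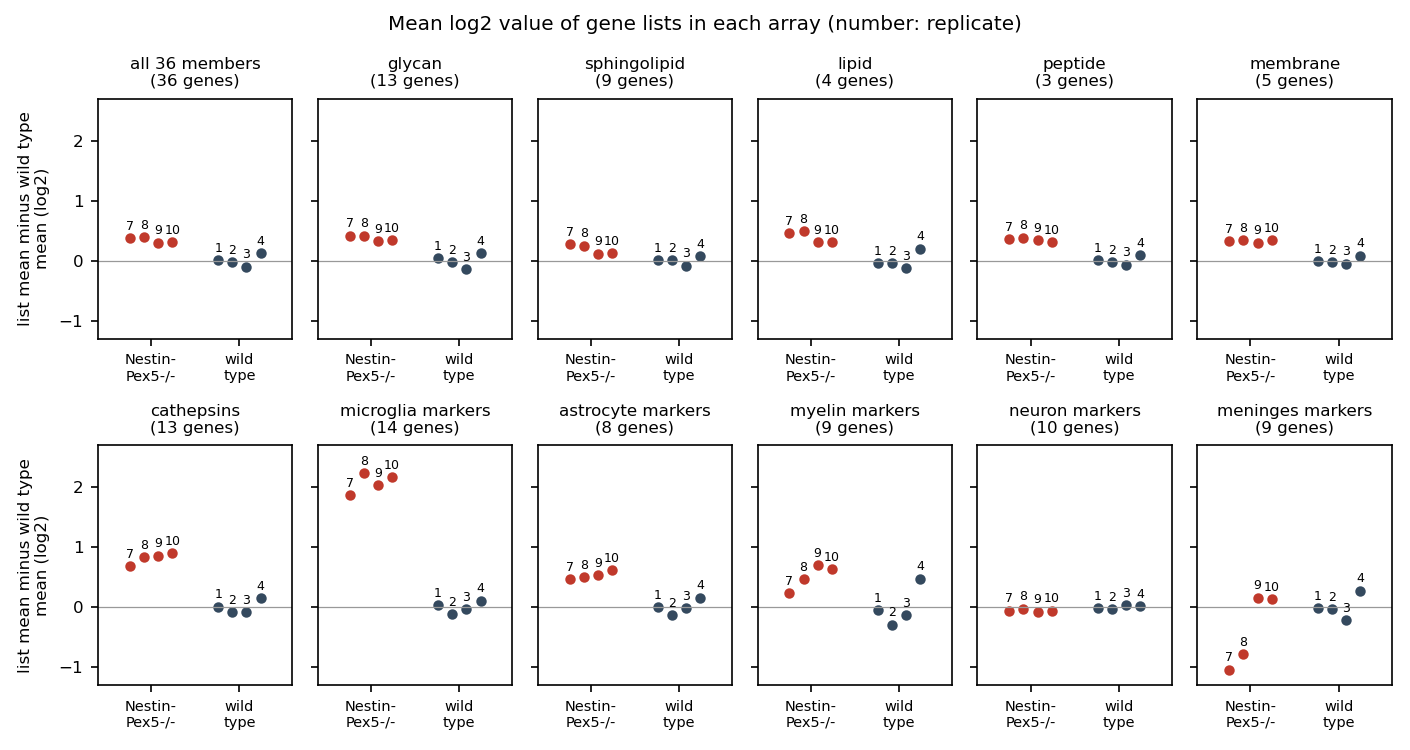
Mean log2 value of each gene list in each array, less the wild type mean of that list (y axis), with Nestin-Pex5-/- left, wild type right and replicate numbers above the points. The member lists lie above every wild type array in every Nestin-Pex5-/- array, by less than the microglia markers do, and neuron markers lie near 0 in all arrays.

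The rest of the lysosome was compared through lists of genes that are not members. Of 13 cathepsins, the main lysosomal proteases, 7 rose and 0 fell, with a median log2 difference of 0.53, led by Ctsc (4.28-fold), Ctss (3.87-fold), Ctsh (3.80-fold) and Ctsz (3.37-fold). Ctss is a protease of antigen presenting cells that trims the invariant chain of MHC class II. Among 24 other hydrolases and cofactors, 2 rose and 0 fell, with a median of 0.09. These were Ctsa (1.92-fold), the protective protein that stabilises Neu1 and Glb1, and Naaa (1.25-fold), an amidase of N-acylethanolamines. Neu1 and Glb1 themselves were not called, as given above.

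Among 28 other membrane proteins and transporters, 5 rose and 0 fell, and the median was 0.04. The largest were Cd68 (6.0-fold), Slc15a3 (5.87-fold), Laptm5 (4.26-fold) and Slc11a1 (3.50-fold), genes known for their expression in macrophages and other leukocytes. Of 19 vacuolar ATPase subunits, 2 rose (Tcirg1 1.67-fold, a subunit known from osteoclasts, and Atp6v0a2 1.29-fold), with a median of 0.01. Of 21 genes of sorting and biogenesis, 2 rose (Nagpa 1.29-fold, which uncovers the mannose 6-phosphate tag, and Hps4 1.26-fold), with a median of 0.02. None of these 4 lists held a gene that was called lower.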

How the data were processed

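Total RNA of the hypothalamus of 4 Nestin-Pex5-/- and 4 wild type mice was labelled with biotin and hybridised to 1 array per mouse. Per the labels, the authors used RMA to obtain the deposited log2 values, a method that removes background, brings all arrays to 1 distribution and condenses probes into probe set values. Its version, the probe set definitions and any filtering are not given in the sources used here. Values ran from 2.91 to 15.03, and array medians from 6.70 to 6.84. With no counts, the number of arrays limits the precision, and compression by normalization and background can shrink the changes of dim probe sets.

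Of 45101 probe sets, 34958 were annotated to 1 gene, 932 to several and 9211 to none listed. Only those with 1 gene were used, 34754 symbols were updated by gene identifier, and each of 18194 genes was read by its probe set of highest mean, with no filter on low values. Differences between genotypes were fitted in limma 3.58.1 under R 4.3.3 (lmFit and eBayes, two-sided, genotype only, Benjamini-Hochberg over all genes, adjusted p under 0.05). Single values were also compared by an exact permutation test over 70 assignments. The fit was tested on simulated data. Alternatives were a filter on dim probe sets, the mean of the probe sets of a gene, other probe set types, repeated quantile normalization, scaling to Actb or to reference genes, other eBayes settings, array weights, a stricter threshold and each array left out.

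Every member is named. From each list of other lysosomal genes the up to 4 called genes with the largest change are named, with up to 2 markers per cell type. The members and the lists were chosen with earlier results of these data known, so they are described by counts and medians, with no test of a list. Other genes of these lists that had no probe set of their own were not analysed here. Promoter windows are those of RefSeq (GRCm38.p6), and motifs were matched exactly on both strands.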

Additional observations from a re-analysis of the deposited data

Results flagged for a closer look

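Of 72 groups of 4 arrays (36 members in each genotype), 3 held an array far from the others by Dixon's criterion for 4 values, and chance flags about 1 in 20 groups. For Tpp1, a peptidase of neuronal ceroid lipofuscinosis, Nestin-Pex5-/- replicate 10 was low at 11.0833, while the other Nestin-Pex5-/- arrays lay between 11.14 and 11.15. In the wild type mice, Tpp1 was high in replicate 2 at 11.0322, while the others lay between 10.94 and 10.96. For Gusb, the β-glucuronidase, wild type replicate 3 was low at 7.4080, while the other wild type arrays lay between 7.64 and 7.68. All 3 values lie in groups that did not overlap with the other genotype.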

How the results depend on the processing

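Of the 15 called members, 10 passed under all 16 alternatives that gave a value for each gene (Man2b1, Grn, Gusb, Lgmn, Hexa, Npc2, Lamp2, Naglu, Arsb and Pla2g15), and 5 lost the call in at least 1. Fuca1, Cln3 and Gm2a lost it with the mean of the probe sets of a gene (adjusted p = 0.113, 0.123 and 0.290). All 5 lost it with scaling to Actb: Fuca1 and Cln3 (0.0714 and 0.0732), Gm2a and Asah1 (0.0984 and 0.195) and Lamp1 (0.145). Of the 21 others, 5 gained a call in at least 1 alternative (Manba, Aga, Scarb2, Ids and Tfeb). Array weights called Manba, Aga, Tfeb and Ids (adjusted p = 0.0394, 0.0184, 0.0474 and 0.0415), and other eBayes settings called Scarb2 (0.0476). The mean of the probe sets of a gene also called Scarb2 (0.31, limma adjusted p = 0.0261). The count of called members was 13 with the mean of the probe sets, 11 with scaling to Actb, 16 with other eBayes settings, 19 with array weights, 10 at an adjusted p under 0.01 and 12 to 17 with 1 array left out, the highest without wild type replicate 4. The count called lower was 1 (Ids) with scaling to Actb and 1 (Ids) with array weights.

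Over all genes, 868 were called (724 higher, 144 lower). Scaling to Actb gave 1626 (540 higher, 1086 lower), array weights 2050 (1351 higher, 699 lower), and an adjusted p under 0.01 gave 487 (467 higher, 20 lower). The mean of the probe sets gave 853 (711 higher, 142 lower), and other eBayes settings gave 991 (811 higher, 180 lower). With 1 array left out, 593 to 1411 genes were called, 543 to 1080 higher and 46 to 331 lower, with the most without wild type replicate 4. Differences near 0 changed sign in 9 members that were not called. With scaling to Actb they were -0.109 for Sgsh, -0.0115 for Idua, -0.0969 for Neu1, -0.0878 for Galc, -0.0798 for Glb1, -0.0114 for Arsa, -0.0798 for Psap, -0.0758 for Ppt1 and -0.0197 for Mcoln1. With array weights they were -0.0261 for Neu1, -0.167 for Galc and -0.0591 for Glb1, and with the mean of the probe sets -0.0473 for Sgsh and -0.00726 for Ppt1. With 1 array left out, the range was -0.0439 to 0.104 for Sgsh, -0.0208 to 0.0799 for Neu1, -0.0802 to 0.154 for Galc and -0.0609 to 0.113 for Glb1. The cause was not tested.

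No paired analysis was possible because the genotypes share no replicate number. With 4 arrays per genotype, and no measure of signal over background in the values used, small differences of dim probe sets could not be resolved. Only 1 region at 1 age was measured, and levels of protein, enzyme activity or stored substrate were not.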

Other observations

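Galc, the galactocerebrosidase of myelin lipid breakdown, was read by 3 probe sets that disagreed within the Nestin-Pex5-/- mice. The second brightest gave 5.09, 5.01, 8.13 and 7.90 in Nestin-Pex5-/- replicates 7 to 10 and 4.91, 4.85, 5.12 and 5.12 in wild type mice. Replicates 9 and 10 thus stood far above the other 6 arrays, while the brightest probe set was lowest in the same 2 arrays (7.77 and 7.80). The difference of the second probe set was 1.53 with an SE of 0.705 (limma over all probe sets, adjusted p = 0.397). Gaa, the glycogen-cleaving glucosidase, was also lowest in Nestin-Pex5-/- replicates 9 and 10 by both of its probe sets, at 10.94 and 10.94 by the brighter and at 10.90 and 10.89 by the other. The cause was not tested.

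The other probe set of Man2b1 read 7.49, 7.29, 7.26 and 7.51 in Nestin-Pex5-/- mice and 7.21, 7.18, 7.02 and 7.13 in wild type mice. The genotypes did not overlap there either, although the difference was 0.26 and did not pass over all probe sets (adjusted p = 0.182).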
